A study of Mus musculus with 22 samples.

Results

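The comparison described here sets mice fed inulin and exposed to PFOS against unexposed mice fed cellulose. Its members were chosen by group name alone: the 3 libraries titled Inulin_PFOS and the 4 titled Control, 7 of the 22 libraries of the series. Intestinal tissue was taken from male wild-type C57BL/6 mice, an inbred strain, that were 7 weeks old when the study began and then spent 7 weeks on an irradiated diet. Both groups ate 8% fibre by weight in a diet whose fat supplied 35%, protein 20% and carbohydrate 45% of the energy. Control mice received cellulose, which gut bacteria ferment poorly. Inulin_PFOS mice received inulin, a fermentable fructan, and drank water that delivered 3 µg of perfluorooctanesulfonic acid (PFOS, a persistent fluorinated surfactant) per kg of body weight each day. The 2 treatments therefore differ together between these groups, and the Inulin (n = 3) and PFOS (n = 4, on cellulose) groups are given beside the results to show each treatment alone. The gut segment is not stated, and every sample carries a treatment field that mentions PFOS, so exposure was read from the group names. Replicates are called Control 1 to 4 and Inulin_PFOS 1 to 3 after their biological replicate numbers, and since nothing states that each is a separate animal, p-values measure the spread between these samples.

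Intestinal epithelial cells adjust to their contents through several programs that this comparison touches. When amino acids run short or mitochondria are strained, phosphorylation of eIF2 alpha favours translation of the transcription factor ATF4, which raises genes for amino acid synthesis, import and tRNA charging. Contact with microbes and cytokines raises an epithelial defence program of hydrogen peroxide and nitric oxide producing enzymes, antibacterial lectins and mucin sugars, while interferons raise antiviral sensors and antigen presentation. PPAR-alpha, a fatty acid receptor that PFOS is known to activate in liver, drives fat oxidation.

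Libraries of the 2 groups held 17613322 to 19780265 counts, and 14231 to 14838 genes reached 10 counts in a library. Genes encoded in mitochondria took 3.95% to 7.90% of counts in Inulin_PFOS and 3.74% to 14.9% in Control, with Control 4 the highest. TMM scaling factors (trimmed mean of M values, which correct for composition) were 0.897 to 0.936 in Inulin_PFOS and 0.952 to 1.22 in Control. Control libraries were the more varied: between replicates the rank correlation across genes was 0.940 to 0.969 in Control and 0.982 to 0.985 in Inulin_PFOS. All 12 enterocyte markers were tested, and their summed level was 42191 to 67340 counts per 1000000 (CPM, after TMM scaling) in Control and 45635 to 61716 in Inulin_PFOS. Of 12 colon markers only 6 passed the expression filter, and Car1, Aqp8, Hoxb13 and Hoxd13 did not.

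With TMM scaling, most genes that passed the threshold were higher in Inulin_PFOS than in Control. Of all genes tested, 41.9% had a positive log2 fold change. The share of calls that were higher depended on the scaling and the test, as given below. Of 15763 genes tested with edgeR, 161 (1.02%) passed an adjusted p of 0.05 (called, below): 139 were higher (0.882%) and 22 lower (0.14%) in Inulin_PFOS. At an unadjusted p under 0.05 there were 2207 genes (14%). Among the called genes the median log2 fold change was 1.45 for the higher and -1.80 for the lower, and 49 higher and 8 lower genes differed by more than 4-fold. All 139 higher genes and 21 of 22 lower ones had no overlap between the 3 and the 4 libraries, as had 1912 of all genes tested (12.1%). The exception was Ces2d-ps. The median log2 fold change over all genes tested was -0.09 with TMM scaling and -0.30 with library totals, so the values below are to be read against that shift. Library totals called 89 genes, of which 48.3% were higher, against 86.3% with TMM scaling and 74.6% of the 500 called by DESeq2, and limma on log2 TPM values called 73 to 84 genes with 34.2% to 46.3% higher. The number of calls rested on single libraries: it was 23 without Inulin_PFOS 1, 86 without Inulin_PFOS 2, 73 without Inulin_PFOS 3, 82 without Control 1, 76 without Control 2, 221 without Control 3 and 101 without Control 4. Of the 161 genes, 20 were called in each of these 7 fits, and 13 in all 21 alternative settings tried. These 13 were Hs3st1, Mthfd2, Muc4, B3gnt7, Jdp2, Asns, Gmds, Upp1, Ceacam10, Duox2, Zbp1 and Ifit1bl1, all higher, and Acot1, lower.

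**Figure D1:**
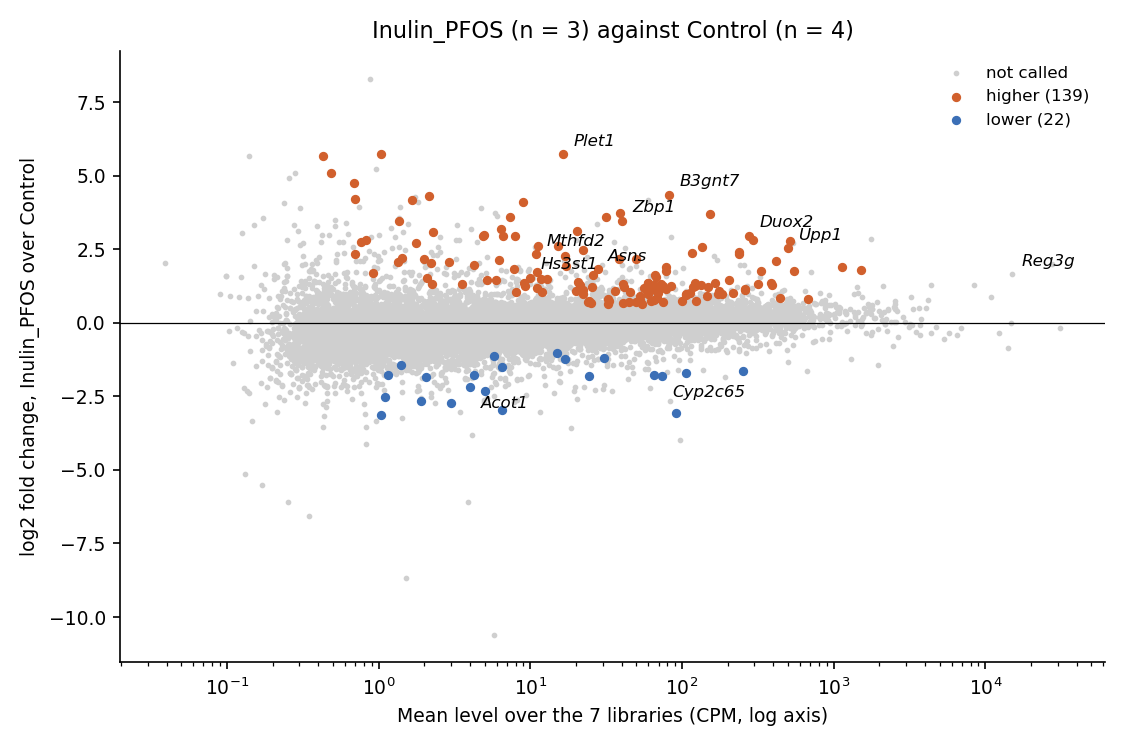
Each point is 1 of the 15763 genes tested, with its mean level over the 7 libraries in CPM on a log axis against its log2 fold change of Inulin_PFOS over Control. The 139 higher and 22 lower genes at an adjusted p under 0.05 are coloured, and Reg3g, abundant and not called, lies among the grey points.

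**Figure D2:**
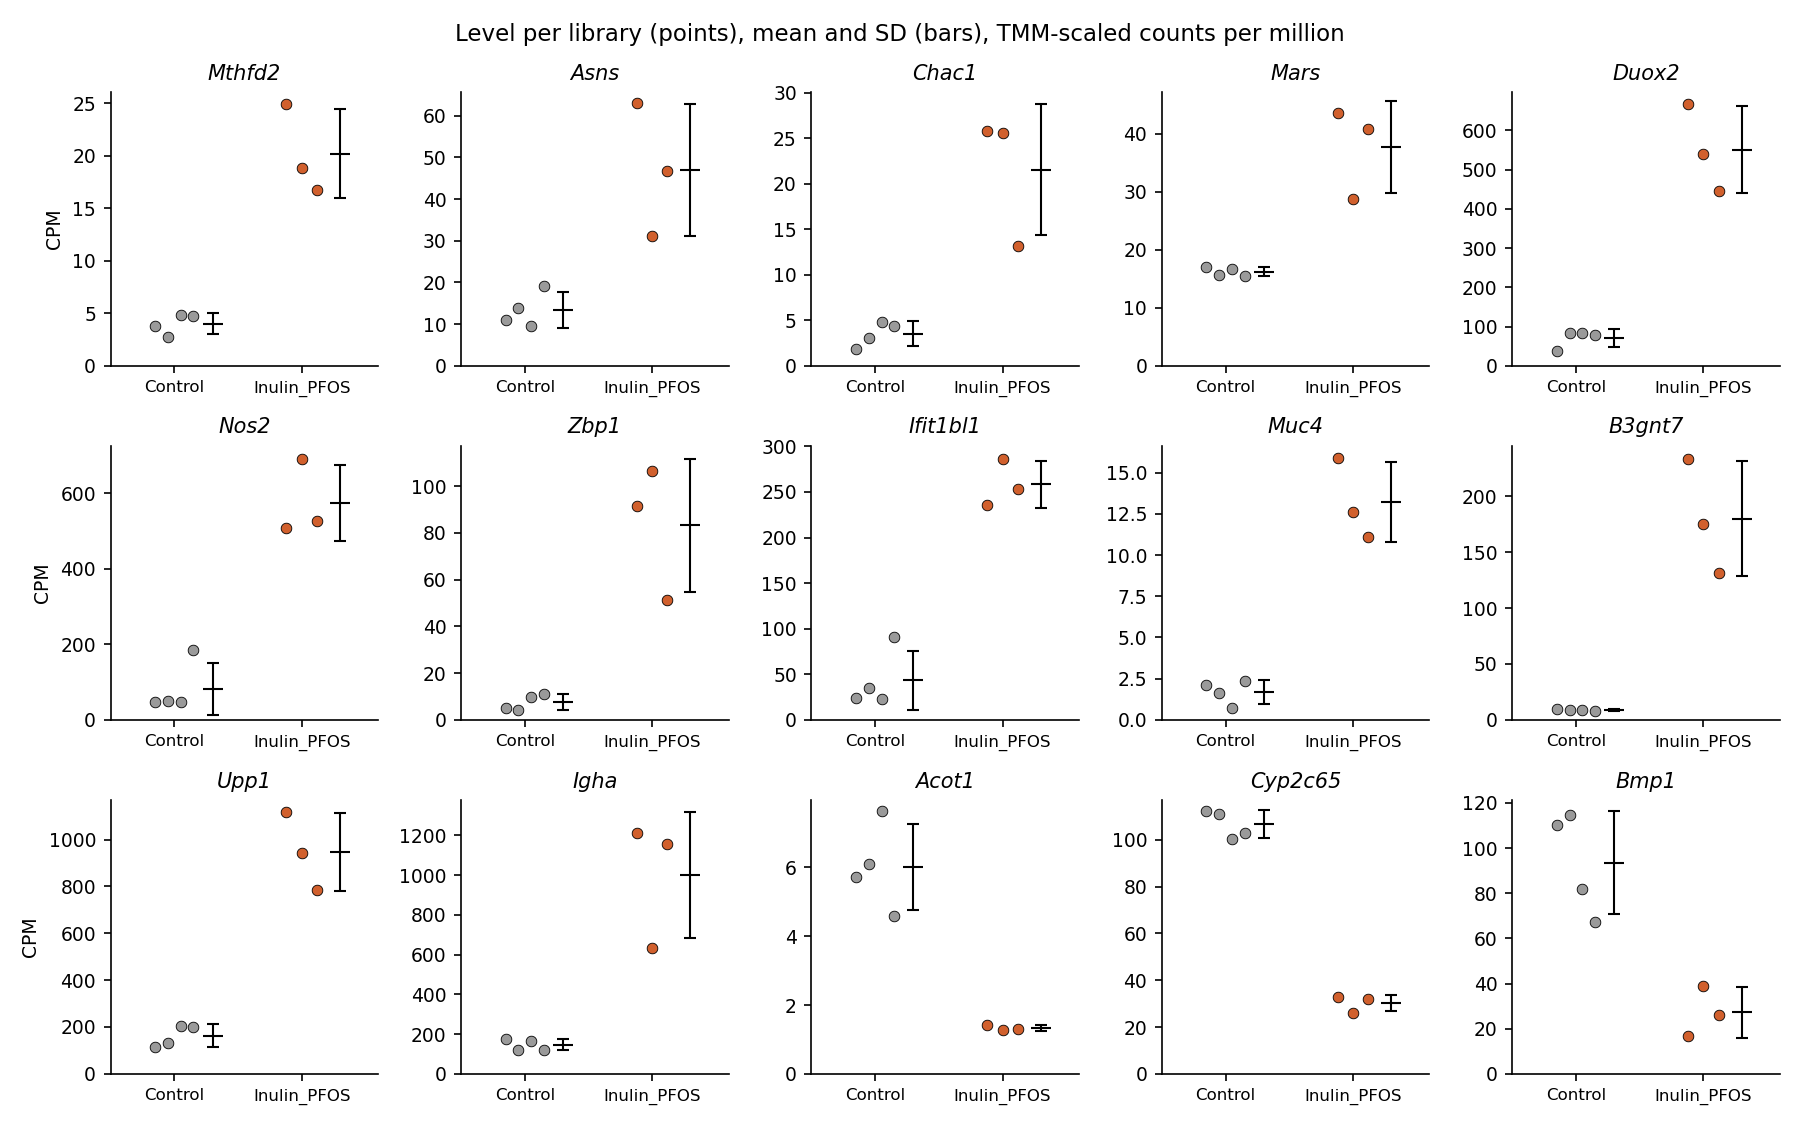
Points give the TMM-scaled CPM of 15 genes in the 4 Control and 3 Inulin_PFOS libraries, and bars give the group mean and SD, on linear axes from 0. In each panel the 2 groups do not overlap, with 12 genes higher and 3 (Acot1, Cyp2c65 and Bmp1) lower in Inulin_PFOS.

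Genes that respond to ATF4 were among those that rose. Of those given next, Mthfd2, Asns and Jdp2 were called in all 21 alternative settings, and Chac1 was not. Mthfd2 (ENSMUSG00000005667, chr6:83305691-83325908), a mitochondrial folate enzyme, had 3.77, 2.71, 4.84 and 4.76 CPM in Control 1 to 4 and 24.98, 18.9 and 16.8 CPM in Inulin_PFOS 1 to 3. The lowest Inulin_PFOS library lay above the highest Control library, and the log2 fold change was 2.33 ± 0.29 (adjusted p = 0.000587). Asns (ENSMUSG00000029752, chr6:7675169-7693254), which makes asparagine from aspartate, measured 10.9, 13.9, 9.54 and 19.1 CPM in the Control libraries and 62.99, 31.2 and 46.8 CPM in the Inulin_PFOS libraries. Its groups were also apart, Control 4 being the nearest, with a log2 fold change of 1.82 ± 0.27 (adjusted p = 0.00342). Jdp2 (ENSMUSG00000034271, chr12:85599105-85639878), a bZIP transcription repressor, stood at 6.18, 6.27, 4.84 and 5.04 CPM against 24.02, 17.8 and 13.3 CPM in Inulin_PFOS. All 3 exposed libraries were higher than all 4 Control libraries, by 1.72 ± 0.25 on the log2 scale (adjusted p = 0.00187). Chac1 (ENSMUSG00000027313, chr2:119351229-119354381), which degrades glutathione, gave 1.81, 3.03, 4.84 and 4.43 CPM in Control and 25.8, 25.6 and 13.2 CPM in Inulin_PFOS. Inulin_PFOS 3 was the lowest of the 3 and still above every Control library (log2 fold change 2.61 ± 0.48, adjusted p = 0.0122).

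In the list of ATF4 and amino acid stress genes, 6 of 32 tested members rose and none fell, against 0.882% and 0.14% of all genes. The list's median log2 fold change was 0.46, beside -0.09 over all genes, and 26 members had a positive value. The other called members were Slc7a1, the cationic amino acid carrier (1.18 ± 0.23, adjusted p = 0.0142), and Atf5, a bZIP factor related to ATF4 (1.13 ± 0.24, adjusted p = 0.0245). Atf4 itself had a log2 fold change of 0.45, and it was not called. Other members had negative values: Ddit3 (CHOP, a stress death factor), Slc7a11 (the cystine carrier) and Phgdh (the first enzyme of serine synthesis) had log2 fold changes of -0.20, -0.59 and -0.16, none of them called. Psat1, the next enzyme of serine synthesis, had 0.87 and the carrier Slc7a5 1.43, both short of the threshold. Calls of Slc7a1, Atf5 and Chac1 were lost without Inulin_PFOS 1, and that of Atf5 also without Control 1, Control 2 or Inulin_PFOS 3. With library totals the calls of Slc7a1 and Atf5 were lost, which left 4 in the list, and its median was 0.23.

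Aminoacyl-tRNA synthetases load amino acids onto their tRNAs, and the cytosolic genes of the family rose in part. Of 20 tested, 8 rose and none fell, against 0.882% and 0.14% of all genes. Among the 20, 12 had no overlap between groups with higher values in Inulin_PFOS (6.69% of all genes did), and the median log2 fold change was 0.65. Mars (methionine) had 17.1, 15.7, 16.7 and 15.5 CPM in Control and 43.7, 28.8 and 40.9 CPM in Inulin_PFOS. Its Control libraries were tightly grouped and all lay below the Inulin_PFOS ones (1.22 ± 0.20, adjusted p = 0.0053). Wars (tryptophan, 1.24 ± 0.23, adjusted p = 0.0122), Gars (glycine, 0.999 ± 0.19, adjusted p = 0.0122), Nars (asparagine, 0.99 ± 0.18, adjusted p = 0.0104) and Yars (tyrosine, 0.99 ± 0.20, adjusted p = 0.0195) followed. The remaining called members were Kars, Rars and Tars, with log2 fold changes of 0.79, 0.75 and 0.70. The 3 members with negative values were Dars at -0.49, Vars at -0.37 and Farsa at -0.26. None of the 8 calls was kept with library totals or without Inulin_PFOS 1, those of Gars, Yars, Kars, Rars and Tars were lost without Inulin_PFOS 3, and those of the last 4 also without Control 2 or Control 4. Without Control 1 the calls of Kars, Rars and Tars were lost, and that of Tars also without Control 3, although the list's median stayed positive with library totals (0.43). Mars shares 68 bases with Ddit3 on the opposite strand, and the labels do not say how such reads were divided.

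ATF4 and its partners bind a C/EBP-ATF composite site, the amino acid response element, written here as TGATGNAAT or TGATGNAAC. Its letters were searched on both strands of the RefSeq promoter windows (GRCm38.p6, 250 bases before to 50 after each start). Windows were found for 128 of the 161 called genes and 11692 of the 15763 tested. Among the 113 higher genes with a window, 8 held the motif (7.08%), beside 140 of the 11692 tested genes (1.197%) and 0 of 15 lower genes. They were Jdp2, Asns, Chac1, Tars, Gars, Yars, Echs1 and Bcl2l15. The synthetase list held it in 5 of 13 windows (38.46%) and the ATF4 list in 7 of 28 (25%). The promoters of 3 of the ATF4 genes and of 1 synthetase are shown because their genes rose and their windows hold these letters. Each is the 250 bases before the start, read on the gene's strand, with the match in capitals. They are Asns at chr6:7693210-7693459 (minus strand), Jdp2 at chr12:85599166-85599415 (plus), Chac1 at chr2:119350992-119351241 (plus) and Tars at chr15:11399659-11399908 (minus).
Asns: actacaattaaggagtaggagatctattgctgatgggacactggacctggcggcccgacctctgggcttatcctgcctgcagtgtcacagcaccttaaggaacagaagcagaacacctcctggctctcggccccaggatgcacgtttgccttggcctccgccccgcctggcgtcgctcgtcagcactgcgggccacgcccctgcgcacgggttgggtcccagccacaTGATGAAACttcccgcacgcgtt
Jdp2: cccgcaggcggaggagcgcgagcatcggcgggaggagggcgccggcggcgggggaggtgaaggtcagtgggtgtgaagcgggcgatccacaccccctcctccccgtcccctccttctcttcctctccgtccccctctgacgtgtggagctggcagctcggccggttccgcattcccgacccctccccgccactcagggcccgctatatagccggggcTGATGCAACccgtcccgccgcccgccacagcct
Chac1: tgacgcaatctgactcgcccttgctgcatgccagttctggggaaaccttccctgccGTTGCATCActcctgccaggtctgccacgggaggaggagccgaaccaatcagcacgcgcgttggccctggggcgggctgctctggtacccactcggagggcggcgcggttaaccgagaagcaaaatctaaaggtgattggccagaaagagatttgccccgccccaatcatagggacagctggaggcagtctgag
Tars: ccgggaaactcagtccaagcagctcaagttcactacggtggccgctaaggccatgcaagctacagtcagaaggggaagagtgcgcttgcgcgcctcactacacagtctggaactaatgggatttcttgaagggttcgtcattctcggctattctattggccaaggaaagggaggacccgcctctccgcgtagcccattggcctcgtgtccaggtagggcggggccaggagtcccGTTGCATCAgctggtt
The Asns and Jdp2 matches, TGATGAAAC and TGATGCAAC, begin 23 and 33 bases before the start, and Chac1 and Tars hold GTTGCATCA, the same motif on the other strand, 194 and 16 bases before it. A match is a match of letters and no measure of binding.

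Epithelial defence genes rose, several by more than 4-fold. In the defence list, 8 of 26 tested members were higher and none lower, against 0.882% and 0.14% of all genes. Among the 26, 15 had no overlap with higher values in Inulin_PFOS (6.69% of all genes), and the median log2 fold change was 1.76. Duox2 (ENSMUSG00000068452, chr2:122279247-122298165), the hydrogen peroxide producing oxidase of the epithelial surface, had 37.6, 83.5, 83.99 and 77.7 CPM in Control 1 to 4 and 666, 539 and 445 CPM in Inulin_PFOS 1 to 3. Control 1 was the lowest library and each Inulin_PFOS library was several times the highest Control value (2.96 ± 0.49, adjusted p = 0.00615). Duoxa2, its maturation factor, went from 9.998, 37.1, 32.9 and 19.04 CPM to 367, 301 and 301 CPM (3.71 ± 0.72, adjusted p = 0.0178). Nos2, the inducible nitric oxide synthase, had 47.8, 48.5, 46.99 and 184 CPM in Control and 508, 691 and 527 CPM in Inulin_PFOS. Control 4 was the high one among its group and still below the Inulin_PFOS range (2.81 ± 0.57, adjusted p = 0.0195).

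The other 5 called members of the list encode secreted or surface proteins or a sugar-adding enzyme. Reg3a, an antibacterial lectin, measured 41.8, 25.7, 33.8 and 43.8 CPM against 155, 120.5 and 128 CPM (1.89 ± 0.37, adjusted p = 0.0178). Its close relative Reg3g had 951, 1502, 7388 and 21031 CPM in Control and 26272, 24609 and 22333 CPM in Inulin_PFOS. The Inulin_PFOS libraries were all higher, the Control libraries ranged widely, and the difference was not called (log2 fold change 1.66 ± 0.83, adjusted p = 0.38). Saa3, an acute phase protein, was near absent in Control at 0.326, 0.372, 3.10 and 0.720 CPM and reached 24.2, 14.2 and 19.6 CPM (4.09 ± 0.89, adjusted p = 0.027). Fut2, the enzyme that fucosylates the epithelial surface, had 1.63, 3.77, 11.5 and 4.76 CPM in Control and 69.3, 70.01 and 59.2 CPM in Inulin_PFOS (3.61 ± 0.78, adjusted p = 0.0262). Lypd8, which keeps flagellated bacteria off the epithelium, had 675, 369, 659.6 and 1238 CPM and 3008, 2292 and 2342 CPM (1.79 ± 0.40, adjusted p = 0.0285). Pigr, the receptor that carries IgA into the lumen, had 457, 265, 1063 and 305 CPM and 2724, 1739.6 and 1338 CPM, with the smallest margin of the 8 (log2 fold change 1.89 ± 0.46, adjusted p = 0.0475). No overlap between groups was seen in any of these genes. The remaining members were not called, among them the secreted Reg3b (1.98 ± 0.77, adjusted p = 0.248), Saa1 (2.86 ± 1.21, adjusted p = 0.293), Saa2 (3.18 ± 0.99, adjusted p = 0.131) and Dmbt1 (2.72 ± 0.66, adjusted p = 0.0502). Itln1, Lyz1, C3 and Cfb had negative log2 fold changes of -0.76, -0.56, -0.92 and -0.28, and were not called either. Apart from Duox2, every call of this list was lost without Inulin_PFOS 1, and every one except Duox2, Duoxa2, Nos2 and Reg3a was lost with library totals. Calls were also lost without Control 1 (Duoxa2, Nos2, Saa3, Fut2, Lypd8 and Pigr), Control 2 (Nos2, Reg3a, Saa3, Fut2, Lypd8 and Pigr), Control 3 (Lypd8), Control 4 (Duoxa2, Saa3, Fut2 and Pigr), Inulin_PFOS 2 (Nos2, Saa3, Fut2, Lypd8 and Pigr) or Inulin_PFOS 3 (Saa3, Fut2, Lypd8 and Pigr).

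Some called genes act on mucins and other glycans; they were picked after their values were seen, form no list and were not tested as a group. B3gnt7 (ENSMUSG00000079445, chr1:86302832-86307305), which extends the N-acetyllactosamine chains of mucins, had 9.998, 9.13, 8.54 and 7.64 CPM in Control and 234, 175 and 131 CPM in Inulin_PFOS. Its Control libraries agreed closely and every Inulin_PFOS library was more than 10 times higher (4.35 ± 0.59, adjusted p = 0.00185). Muc4 (ENSMUSG00000079620, chr16:32735886-32782391), a membrane mucin, had 2.09, 1.65, 0.699 and 2.38 CPM and 15.9, 12.6 and 11.1 CPM (2.95 ± 0.41, adjusted p = 0.00185). Gmds (ENSMUSG00000038372, chr13:31819579-32338712), the first enzyme of GDP-fucose synthesis, had 79.8, 56.8, 105 and 95.7 CPM and 553, 354 and 416 CPM (2.39 ± 0.37, adjusted p = 0.00455). Both genes were higher in each Inulin_PFOS library than in any Control library. Hs3st1 (ENSMUSG00000051022, chr5:39613935-39755475), a heparan sulfate sulfotransferase, had the smallest adjusted p of all, with 6.32, 4.73, 5.54 and 5.48 CPM against 17.3, 13.6 and 17.2 CPM (1.54 ± 0.17, adjusted p = 0.000202). The sulfotransferase Chst4 (2.48 ± 0.45, adjusted p = 0.0115) and the galactosyltransferase B4galt1 (1.10 ± 0.23, adjusted p = 0.0245) also rose. Both calls were lost without Inulin_PFOS 1, and that of B4galt1 also without Control 1, Control 4 or Inulin_PFOS 2 and with library totals. Goblet cells make most of the secreted mucus, and of 12 goblet cell markers none was called, with a median log2 fold change of 0.65 and a summed level of 7519 to 9910 CPM in Control and 11275 to 19654 CPM in Inulin_PFOS. Their part in the results for these genes was not tested.

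Several further genes stood out by the size of their change. Upp1 (ENSMUSG00000020407, chr11:9118103-9136170), which cleaves uridine, had 114, 131, 206 and 201 CPM in Control and 1118, 941 and 785 CPM in Inulin_PFOS, apart in every library (2.54 ± 0.40, adjusted p = 0.00498). Plet1, a surface protein of epithelial progenitors, had 0.651, 0.744, 0.499 and 0.886 CPM in Control and 55.5, 35.2 and 20.9 CPM in Inulin_PFOS (5.73 ± 1.14, adjusted p = 0.0186). Tat, the tyrosine aminotransferase, had 3.35, 6.16, 8.49 and 6.98 CPM and 73.4, 92.9 and 81.8 CPM (3.73 ± 0.80, adjusted p = 0.0262). Ceacam10 had 0.419, 0.372, 0.649 and 0.720 CPM and 3.74, 4.14 and 6.01 CPM (3.09 ± 0.50, adjusted p = 0.00526). The sodium-proton exchanger Slc9a3 (NHE3), which absorbs sodium, had 1.72, 2.44, 1.35 and 2.60 CPM and 22.5, 11.2 and 13.4 CPM (2.95 ± 0.56, adjusted p = 0.0128), and the carbonic anhydrase Car4 had 77.6, 32.3, 139 and 100.1 CPM and 557, 433 and 326 CPM (2.33 ± 0.51, adjusted p = 0.027). Car4 and B3gnt7 are also on the colon marker list and were its 2 called members, where 0.882% of all genes were called higher. The list's 6 tested members summed to 190.4, 118, 197 and 255 CPM in Control and 907, 689.5 and 527 CPM in Inulin_PFOS. That sum includes Car4 and B3gnt7 themselves. The list's median log2 fold change was only 0.16, with 4 positive and 2 negative values. The part of that list in the results for Car4 and B3gnt7 was not tested. Ankrd1 had an equally large fold change as Plet1 (5.73 ± 1.32, adjusted p = 0.0366) but rested on Inulin_PFOS 2 (0.170, 5.52 and 1.46 CPM in Inulin_PFOS 1 to 3) and was not called without it. Gsr, glutathione reductase (1.24 ± 0.24, adjusted p = 0.0132), and Gpx2, an epithelial glutathione peroxidase (2.10 ± 0.47, adjusted p = 0.0325), were the 2 called members of 27 glutathione and NRF2 genes. Among all genes, 0.882% were called higher. The median of the 27, 0.03, was -0.08 without Control 4 and -0.16 without Inulin_PFOS 3. Without Inulin_PFOS 1 the calls of Plet1, Tat, Slc9a3, Car4, Gsr and Gpx2 were lost, whereas those of Upp1 and Ceacam10 were kept. Those of Plet1, Tat, Car4, Gpx2 and Ankrd1 were also lost without Control 1 or Control 2, and the last 4 of these without Control 4 or Inulin_PFOS 3, with that of Ankrd1 lost without Control 3 as well. Tat, Car4 and Gpx2 were not called without Inulin_PFOS 2, nor, like Gsr, with library totals.

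Interferon-stimulated genes had positive log2 fold changes in 33 of 33 tested, whereas 41.9% of all genes did. The median was 0.83. No overlap with higher values in Inulin_PFOS was seen in 14 of the 33 (6.69% of all genes), and 3 were called higher (0.882% of all genes). Zbp1 (ENSMUSG00000027514, chr2:173206612-173218923), a sensor of Z-form nucleic acid, had 5.02, 4.36, 9.64 and 11.1 CPM in Control and 91.7, 107 and 51.4 CPM in Inulin_PFOS. Inulin_PFOS 3 was the lowest of its group and well above Control 4, the highest Control library (3.47 ± 0.57, adjusted p = 0.00673). Ifit1bl1 (ENSMUSG00000079339, chr19:34592888-34601968), a relative of the antiviral RNA-binding Ifit1, had 23.5, 34.8, 23.3 and 91.2 CPM and 235, 287 and 253 CPM, again apart (2.58 ± 0.44, adjusted p = 0.00715). Epsti1 rose by less (0.81 ± 0.16, adjusted p = 0.018), and its call was lost without Inulin_PFOS 1 or 3. It was also lost with library totals, with the 7 libraries fitted alone and with limma on log2 TPM values. With library totals the list had 2 calls and a median of 0.63. The list's median was 0.38 without Inulin_PFOS 2, which had the highest summed level (2317 CPM, against 1704 and 1636 in the other libraries of its group and 935 to 1292 in Control).

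The interferon response core, a pair of GAAA letters with 2 bases between, was searched on both strands in the same promoter windows. It was found in 3 of the 113 higher genes (2.655%), which were Ifit1bl1, Psme1 and Saa3, and in 463 of the tested genes (3.96%), so the called genes were near the background. The window of Ifit1bl1 at chr19:34601969-34602218 (minus strand), shown as the called gene of the list with a match, holds TTTCATTTTC 104 bases before the start.
Ifit1bl1: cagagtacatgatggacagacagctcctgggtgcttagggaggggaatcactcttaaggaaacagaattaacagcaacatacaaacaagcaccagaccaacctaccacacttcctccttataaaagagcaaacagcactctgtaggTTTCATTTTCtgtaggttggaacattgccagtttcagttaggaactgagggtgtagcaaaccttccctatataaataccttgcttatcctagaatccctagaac
In the interferon-stimulated list 14 of 23 windows held the core, and in the interferon-gamma GTPase list 9 of 9. The CRE, TGACGTCA, was held by 1.77% of the higher genes and 3.319% of those tested, the E-box, CACGTG, by 13.27% and 11.1%, the nuclear receptor motif, TGACCT, by 19.47% and 15.26%, and CCAAT by 40.71% and 42.44%.

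Genes of interferon-gamma responses and antigen presentation had positive medians. Interferon-gamma GTPases had a median log2 fold change of 0.83 over 14 tested genes, with none called in edgeR. Their summed level was 74.5, 72.1, 91.7 and 236 CPM in Control 1 to 4 and 347, 327 and 152 CPM in Inulin_PFOS 1 to 3, and without Control 4, the high Control library, the median was 1.61. Among 16 genes of MHC class I loading and the immunoproteasome, 3 rose: the proteasome subunit Psmb10 (1.35 ± 0.27, adjusted p = 0.0186), the peptide transporter Tap1 (1.75 ± 0.37, adjusted p = 0.0232) and the proteasome activator Psme1 (0.98 ± 0.21, adjusted p = 0.0245). In all, 10 of the 16 had no overlap with higher values in Inulin_PFOS. Among all genes, 6.69% did so and 0.882% were called higher. The 3 calls were lost without Inulin_PFOS 1, without Control 2 or without Control 4, and with library totals, those of Tap1 and Psme1 also without Control 1, that of Tap1 without Inulin_PFOS 2, and those of Psmb10 and Psme1 without Inulin_PFOS 3. MHC class II genes had no call among 10 tested and a median of 1.14, which was 2.06 without Control 3. H2-DMb1 (2.55), Cd74 (1.72) and H2-Ab1 (1.56) had no overlap, whereas H2-Ob, H2-Oa and H2-DMb2, which B cells express most, had log2 fold changes of -2.20, -2.07 and -1.96.

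Ripk3, Mlkl and Il18bp, which belong to no list here and were picked after their values were seen, were called. Ripk3, the necroptosis kinase that ZBP1 engages, had 15.7, 11.7, 13.3 and 12.3 CPM in Control and 37.1, 29.2 and 30.5 CPM in Inulin_PFOS (1.28 ± 0.24, adjusted p = 0.0122). Its substrate Mlkl, which forms the membrane pore, had 4.65, 2.76, 3.35 and 2.88 CPM and 10.3, 8.39 and 9.26 CPM (1.44 ± 0.27, adjusted p = 0.0122). In both genes all Inulin_PFOS libraries were above all Control libraries. Il18bp, the decoy that binds interleukin 18, rose as well, from 3.72, 2.28, 6.24 and 6.70 CPM to 36.2, 30.6 and 20.5 CPM (2.62 ± 0.46, adjusted p = 0.0104). The 3 calls were lost without Inulin_PFOS 1 and kept without any other single library, and those of Ripk3 and Mlkl were also lost with library totals and with limma on log2 TPM values.

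Immune cell genes changed in part. Igha, the constant region of IgA, had 173, 121, 167 and 121 CPM in Control and 1211, 634 and 1154 CPM in Inulin_PFOS, with no overlap (2.78 ± 0.58, adjusted p = 0.0226). In such bulk tissue a change in the number of cells and a change in RNA per cell cannot be told apart. The summed level of 9 plasma cell markers was 592, 570.2, 776 and 1154 CPM in Control and 2679, 1678 and 2675 CPM in Inulin_PFOS, with 1 member called (Igha) and a median of 0.89. Of 113 tested genes with symbols of immunoglobulin or T cell receptor segments, 99 had positive values. The 4 called among them were immunoglobulin variable segments, all higher. The choice by symbol also took in Ighd, which is on the B cell marker list. Among all genes, 0.882% were called higher and 41.9% had positive values. The sequences of the segments are alike, so how reads were divided among them is uncertain. Gzmb, granzyme B of cytotoxic lymphocytes, had 5.49, 2.07, 6.04 and 5.43 CPM and 48.9, 48.6 and 25.7 CPM (3.11 ± 0.64, adjusted p = 0.0226), and it was the called gene among 14 T cell markers. Those markers summed to 62.9, 16.6, 168 and 54.4 CPM in Control and 238, 279 and 321 CPM in Inulin_PFOS, and their median log2 fold change of 0.42 was 1.51 without Control 3 and 0.07 without Control 2. B cell markers showed no call among 14 and a median of -2.05, but Control 3 carried 1050 CPM of them and Control 1 313 CPM, the other 5 libraries 15.9 to 109 CPM, and the median was -0.47 without Control 3. Calls of Igha and Gzmb were lost without Control 1, 2 or 4 or Inulin_PFOS 1, that of Igha without Inulin_PFOS 3 and with library totals, and that of Gzmb without Inulin_PFOS 2. The part of these cell markers in the defence and interferon results was not tested.

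**Figure D3:**
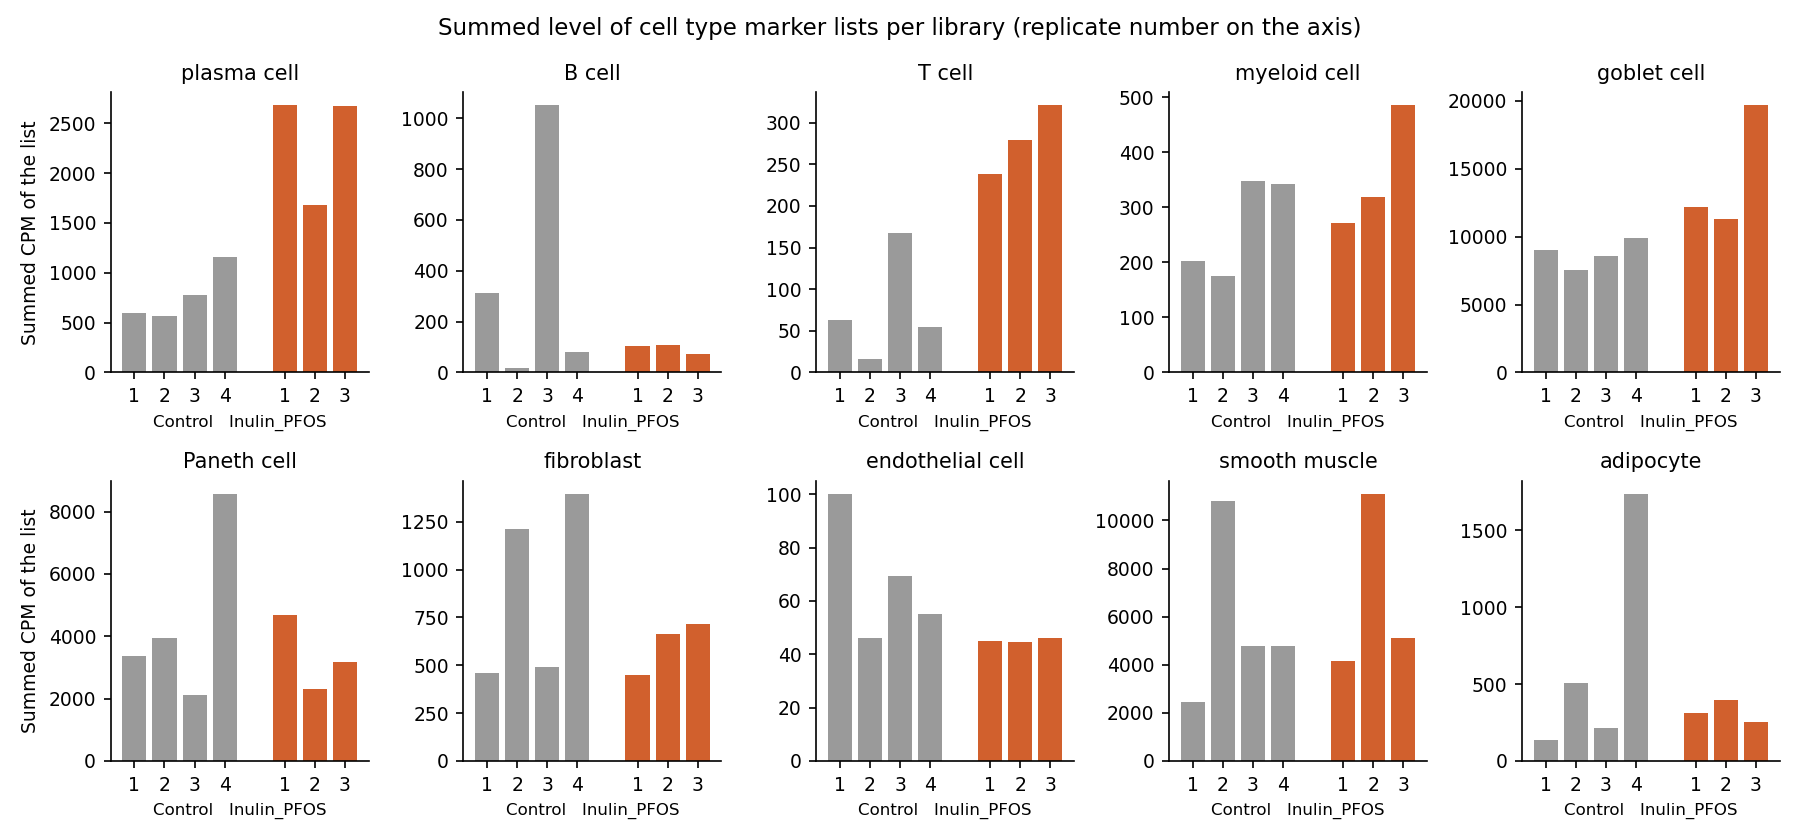
Bars give the summed TMM-scaled CPM of 10 cell type marker lists in each library, Control 1 to 4 in grey and Inulin_PFOS 1 to 3 in orange, on linear axes from 0. Plasma cell, T cell and goblet cell sums are higher in every Inulin_PFOS library, while the B cell sum is carried by Control 3 and the adipocyte sum by Control 4.

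**Figure D4:**
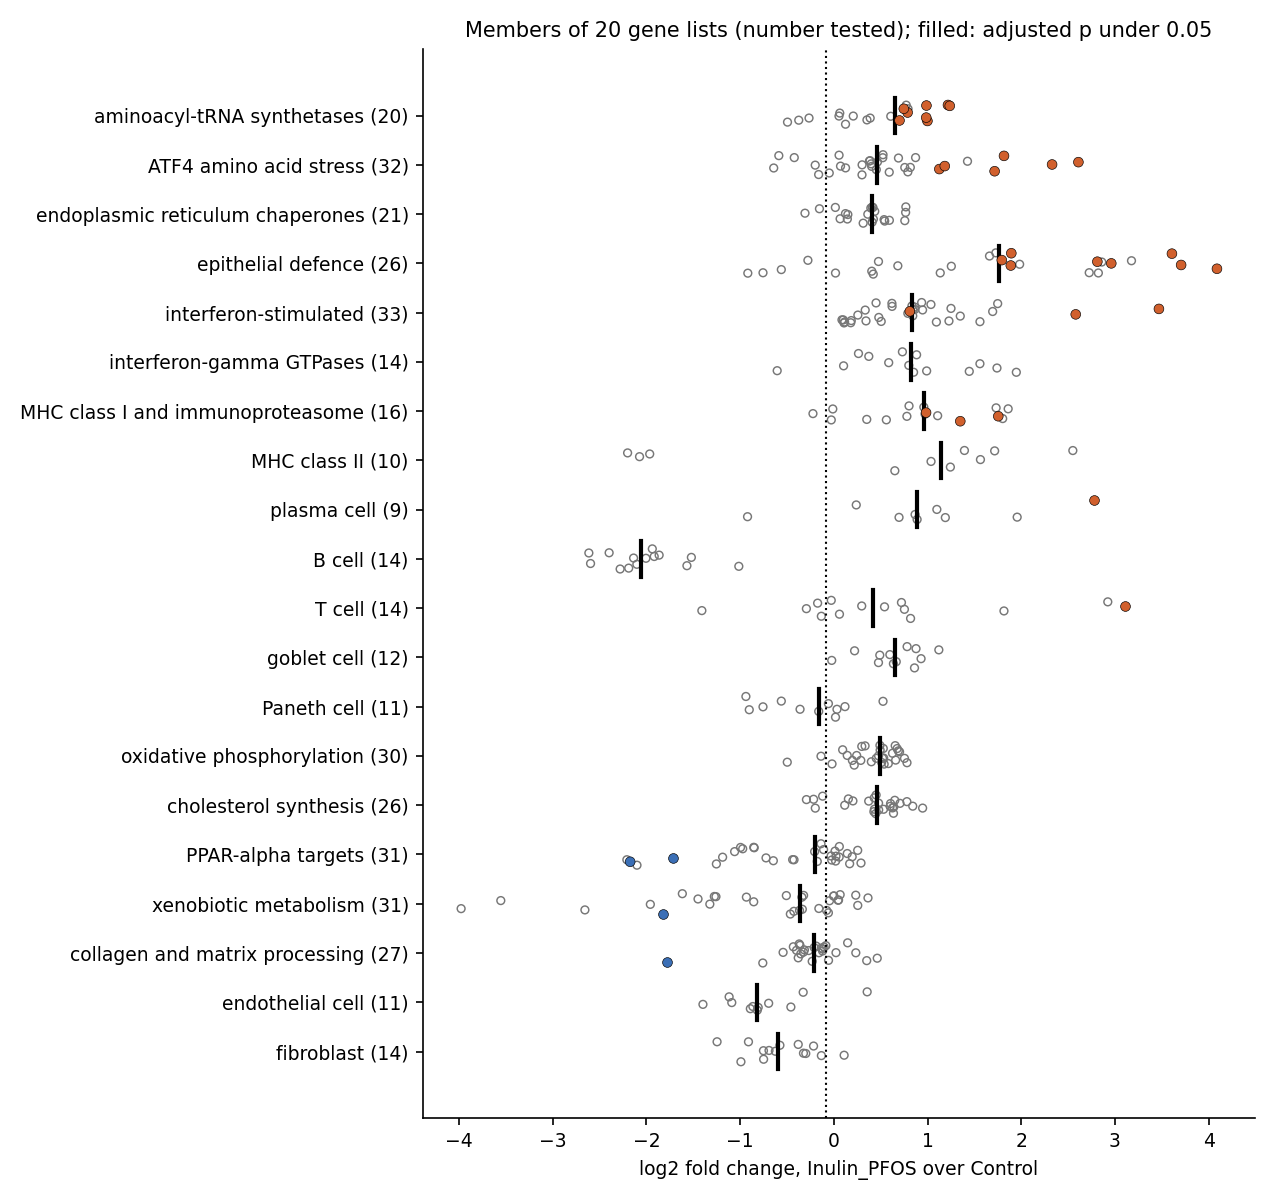
Each point is 1 tested member of 20 gene lists by its log2 fold change of Inulin_PFOS over Control, filled where the adjusted p is under 0.05. Black bars mark the list medians and the dotted line the median of all genes (-0.09); the epithelial defence list lies farthest to the right (1.76) and the B cell list farthest to the left (-2.05).

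With TMM scaling the lower genes were fewer, and they included genes of fat oxidation, drug metabolism and matrix processing. Acot1 (ENSMUSG00000072949, chr12:84009502-84017670), an acyl-CoA thioesterase and PPAR-alpha target, had 5.72, 6.11, 7.64 and 4.59 CPM in Control and 1.42, 1.27 and 1.30 CPM in Inulin_PFOS. Every Inulin_PFOS library lay below the lowest Control library, and the log2 fold change was -2.17 ± 0.35 (adjusted p = 0.0053); close copies of the gene make the share of reads it received uncertain. Of 31 PPAR-alpha targets tested 2 fell (0.14% of all genes), Acot1 among them, and none rose. Their median log2 fold change was -0.21 (-0.44 with library totals), and 8 had no overlap with lower values in Inulin_PFOS (5.44% of all genes). Cpt1a, which admits fatty acids into mitochondria, had 165, 128, 102 and 89.2 CPM and 78.5, 61.2 and 61.4 CPM (-0.85 ± 0.31, adjusted p = 0.214). Pdk4, the brake on pyruvate oxidation, had a log2 fold change of -1.25 ± 0.50 (adjusted p = 0.263) and Angptl4, a lipase inhibitor, of -0.996 ± 0.46 (adjusted p = 0.343). All 3 had lower values without overlap, Angptl4 by a very small margin, and none was called. Bdh1, which interconverts the 2 ketone bodies, rose from 39.6, 52.6, 39.9 and 35.5 CPM to 77.2, 85.1 and 86.2 CPM (0.98 ± 0.18, adjusted p = 0.0122), a call that held whichever single library was left out but not with library totals.

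In the drug metabolism list 1 of 31 tested genes fell, none rose, and 24 had negative log2 fold changes, with a median of -0.37 (-0.58 with library totals). Cyp2c65 (ENSMUSG00000067231, chr19:39061015-39093944), an intestinal cytochrome P450, had 113, 111, 100.4 and 103 CPM in Control and 32.7, 26.2 and 31.97 CPM in Inulin_PFOS. The Control values agreed within a narrow range and the log2 fold change was -1.82 ± 0.37 (adjusted p = 0.0201), a call lost without Control 1 or any Inulin_PFOS library. Its neighbour and close relative Cyp2c55 had 220.2, 209, 163 and 58.4 CPM and 12.2, 4.14 and 14.7 CPM (-3.98 ± 0.99, adjusted p = 0.0568). Cyp3a11, a target of the xenobiotic receptor PXR, had 115, 162, 112 and 133 CPM and 16.03, 13.3 and 32.7 CPM (-2.66 ± 1.07, adjusted p = 0.27), and Cyp2b10, a target of CAR, had 4.28, 9.72, 18.8 and 7.03 CPM and 1.87, 2.59 and 3.20 CPM (-1.96 ± 1.21, adjusted p = 0.471). These 3 had no overlap between groups and missed the threshold. In all, 8 of the 31 had lower values without overlap. Among all genes, 5.44% did so and 0.14% were called lower. The carboxylesterase Ces2b (-2.34 ± 0.50, adjusted p = 0.0243) and the organic cation carrier Slc22a3 (-2.67 ± 0.50, adjusted p = 0.0122) fell, the first a call lost without Control 1 or 2 or any Inulin_PFOS library and the second without Inulin_PFOS 1 or 3.

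Bmp1 (ENSMUSG00000022098, chr14:70474557-70520260), the protease that trims procollagen, had 110.3, 115, 82.04 and 67.3 CPM in Control and 16.6, 38.9 and 26.01 CPM in Inulin_PFOS. All Inulin_PFOS libraries were lower than all Control libraries (-1.78 ± 0.36, adjusted p = 0.0186), and the call was lost without Control 1, Control 2, Inulin_PFOS 1 or Inulin_PFOS 3. It was the called gene among 27 of collagen and matrix processing, where 0.14% of all genes were called lower. The median of the 27, -0.21, was -0.04 without Control 2 or without Inulin_PFOS 1 and -0.07 without Control 4. It was -0.32 without Control 1, and -0.35 without Control 3 or without Inulin_PFOS 2. With library totals it was -0.39. Fibroblast markers, 14 tested and none called, summed to 462, 1210.0, 493 and 1396 CPM in Control and 449, 663 and 714 CPM in Inulin_PFOS, and their part in the Bmp1 result was not tested. Id1, a target of BMP signalling, had 70.96, 94.4, 47.3 and 82.5 CPM and 149.9, 151 and 139.7 CPM (0.99 ± 0.25, adjusted p = 0.0582), higher without overlap and short of the threshold.

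The lists described next held no called gene. The 30 oxidative phosphorylation genes of the nucleus had a median of 0.49 with 27 positive values, while the 13 mitochondrially encoded genes had a median of -0.35 and no positive value. That second median changed sign, to 0.31, without Control 4, the library with the most mitochondrial counts, and was -0.76 without Inulin_PFOS 1, -0.57 without Control 3 and -0.05 without Inulin_PFOS 3. Cholesterol synthesis genes had a median of 0.46 with 22 of 26 positive, endoplasmic reticulum chaperones 0.41 with 19 of 21 positive, and clock genes -0.37 with 1 of 18 positive. The chaperone median was 0.20 without Inulin_PFOS 1, and the clock median was -0.64 without Inulin_PFOS 1, -0.21 without Control 1 and -0.24 without Inulin_PFOS 3. With library totals the medians of the oxidative phosphorylation, cholesterol, chaperone and clock lists were 0.28, 0.22, 0.16 and -0.63. Paneth cell markers had a median of -0.16, which ranged from -0.73 (without Inulin_PFOS 1) to 0.09 (without Control 4) when single libraries were left out. Endothelial markers had a median of -0.82, and 10 of 11 were negative. It was -0.49 without Control 1.

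The 2 single treatments are set beside these changes, in comparisons that share libraries with the one above. Neither alone gave a called gene against Control: Inulin and PFOS each had 0 calls in edgeR, with 3257 (20.7%) and 842 (5.34%) genes at an unadjusted p under 0.05. Inulin_PFOS differed from PFOS in 416 genes (2.64%; 1.84% higher and 0.799% lower in Inulin_PFOS) and from Inulin in 25 (0.159%; 0.0698% higher and 0.0888% lower). Mthfd2 had 4.61 ± 0.441 CPM in PFOS (SD, n = 4) and 3.55 ± 1.18 CPM in Inulin (SD, n = 3), beside 4.02 ± 1.002 CPM in Control (SD, n = 4) and 20.2 ± 4.25 CPM in Inulin_PFOS (SD, n = 3). Inulin_PFOS was higher than Inulin by 2.51 ± 0.32 on the log2 scale (adjusted p = 0.00108) and than PFOS by 2.13 ± 0.29 (adjusted p = 0.000821). Asns behaved alike, higher than in Inulin by 2.03 ± 0.30 (adjusted p = 0.00523) and than in PFOS by 1.88 ± 0.27 (adjusted p = 0.00212). Jdp2 was higher by 2.21 ± 0.28 (adjusted p = 0.00108) and 1.27 ± 0.24 (adjusted p = 0.00887), Hs3st1 by 1.25 ± 0.19 (adjusted p = 0.00523) and 1.40 ± 0.17 (adjusted p = 0.00038), and Upp1 by 2.49 ± 0.44 (adjusted p = 0.0203) and 2.33 ± 0.40 (adjusted p = 0.00518). Bmp1 differed from Inulin by -2.34 ± 0.38 (adjusted p = 0.0136) and from PFOS by -1.75 ± 0.36 (adjusted p = 0.0137).

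Duox2, Nos2 and Ripk3 had a higher mean in Inulin than in PFOS. Duox2 had 57.3 ± 30.3 CPM in PFOS and 209 ± 151 CPM in Inulin, and Inulin_PFOS (550.2 ± 111 CPM) was higher than PFOS by 3.26 ± 0.49 (adjusted p = 0.00257) but not called against Inulin (1.39 ± 0.51, adjusted p = 0.168). Nos2 had 57.6 ± 12.3 CPM in PFOS and 376 ± 380.2 CPM in Inulin, with a difference of 3.32 ± 0.58 (adjusted p = 0.00568) against PFOS and 0.61 ± 0.59 (adjusted p = 0.593) against Inulin. Inulin libraries were spread widely in both genes and 1 of them lay above every Inulin_PFOS library for Nos2. Ripk3 had 12.5 ± 3.51 CPM in PFOS and 27.3 ± 13.3 CPM in Inulin, with 1.37 ± 0.24 (adjusted p = 0.00568) against PFOS and 0.24 ± 0.26 (adjusted p = 0.636) against Inulin. Cyp2c65, a cytochrome P450, had 97.5 ± 20.6 CPM in PFOS and 102 ± 13.7 CPM in Inulin, and Inulin_PFOS (30.3 ± 3.57 CPM) differed from PFOS by -1.69 ± 0.37 (adjusted p = 0.0198) and from Inulin by -1.75 ± 0.39 (adjusted p = 0.0575).

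**Figure D5:**
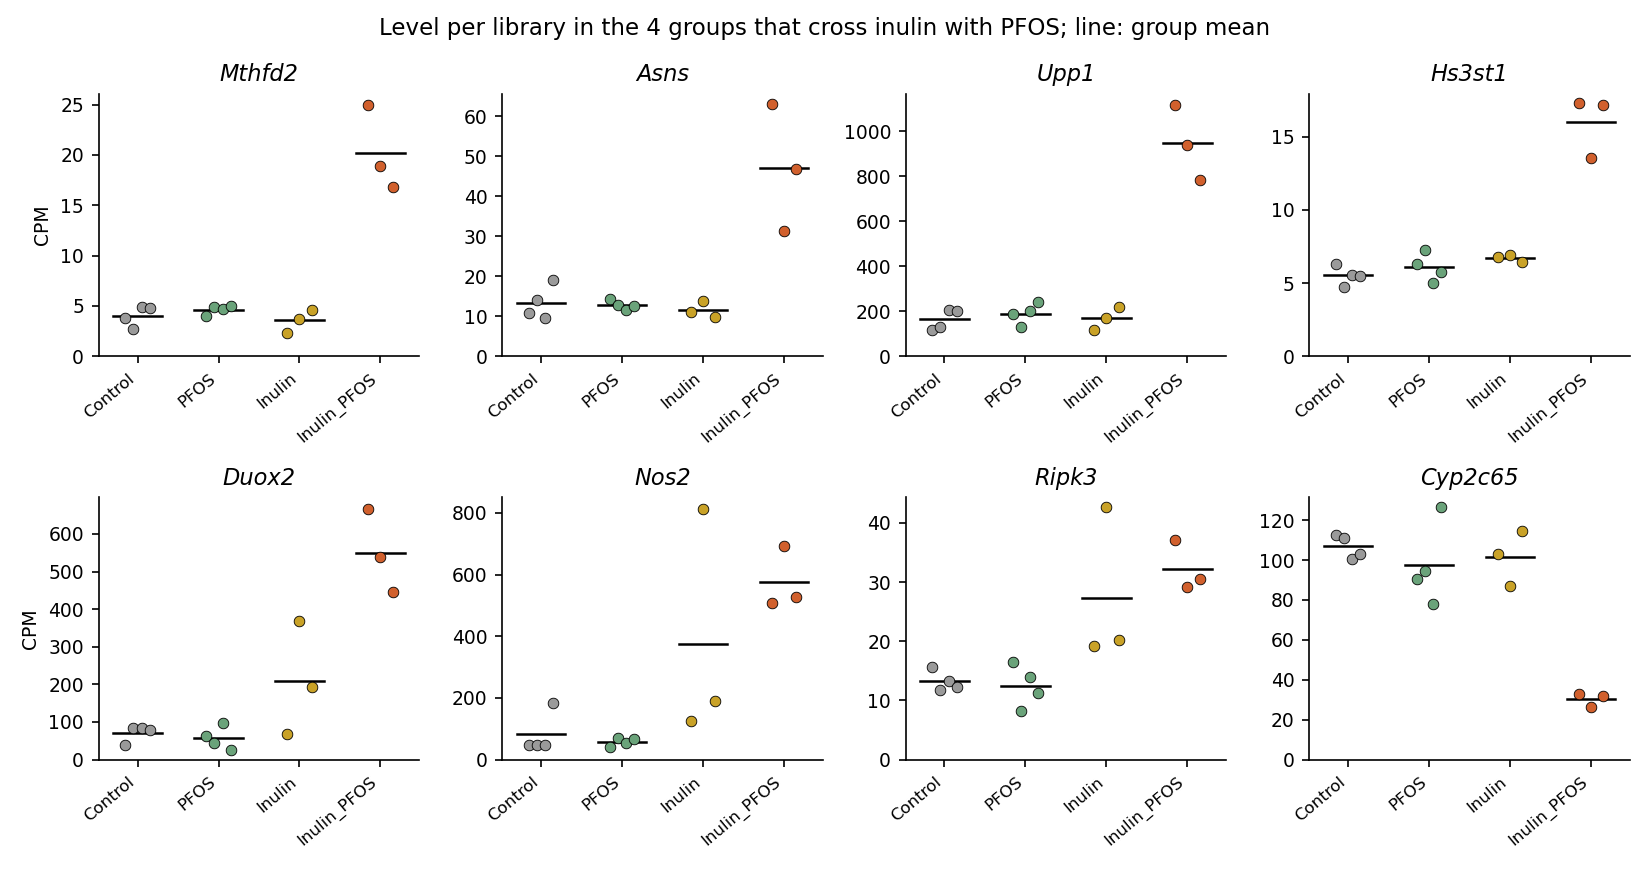
Points give the TMM-scaled CPM of 8 genes in each library of the Control, PFOS, Inulin and Inulin_PFOS groups, with a line at the group mean, on linear axes from 0. Mthfd2, Asns, Upp1 and Hs3st1 have every Inulin_PFOS library above every library of the other 3 groups, Inulin libraries of Duox2, Nos2 and Ripk3 are spread, and every Inulin_PFOS library of Cyp2c65 lies below every library of the other 3 groups.

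Whether the combined change departs from the sum of the single changes on the log scale was tested as the interaction of PFOS with inulin. No gene was called in edgeR, while 3099 (19.7%) had an unadjusted p under 0.05. For Mthfd2 the interaction was 2.31 ± 0.41 (adjusted p = 0.0984) and for Asns 2.10 ± 0.39 (adjusted p = 0.0984). Upp1 had 2.28 ± 0.56 and Hs3st1 1.11 ± 0.24, both at the same adjusted p, and Ripk3 0.33 ± 0.34 (adjusted p = 0.632). None of these passed the threshold, so a departure from additivity was not shown for any gene at this group size.

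Pectin_PFOS, the group with the other fermentable fibre and the same exposure (n = 4), was the most alike in design. Inulin_PFOS against Pectin_PFOS gave 0 calls in edgeR and 2572 genes (16.3%) at an unadjusted p under 0.05, so no change described here can be called particular to inulin. Against the same Control libraries Pectin_PFOS had 3812 called genes (24.2%; 10.1% higher and 14.1% lower), and 38.4% had an unadjusted p under 0.05. Mthfd2 differed from Control there by 1.88 ± 0.27 (adjusted p = 0.000543), Duox2 by 3.04 ± 0.47 (adjusted p = 0.000794) and Zbp1 by 3.16 ± 0.55 (adjusted p = 0.00122). Cyp2c65 was not called in that group (-0.70 ± 0.33, adjusted p = 0.118), and the difference between the 2 exposed groups was -1.11 ± 0.36 (adjusted p = 0.128).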

How the data were processed

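Stranded RNA libraries of intestinal tissue were sequenced on a DNBSEQ instrument, per the labels' protocols. The authors deposited an estimated count (an expected count, not always whole) and a TPM value (transcripts per 1000000) for each of 46603 genes. HISAT and Bowtie2 are named, without versions, in the submitters' processing notes, as is GRCm39, but 38946 of 46091 gene coordinates shared with the GENCODE M21 annotation are identical to it, so coordinates are given on GRCm38. How the authors divided reads between overlapping or similar genes (such as the Acot1, Cyp2c, Ces2, Ifit, Saa and Reg3 families, and immunoglobulin segments) is not given in the sources used here, and such genes are uncertain. Mars, Il18bp, Bcl2l15, Bdh1, Slc22a3, Wars, Duoxa2, Yars, Tap1, Psme1, Atf5, Echs1 and Gpx2 each overlap a neighbouring gene.

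Expected counts were rounded and tested in edgeR 4.0.16 (R 4.3.3), with a robust quasi-likelihood F test, TMM scaling and the default expression filter. One model with a mean per group covered all 22 libraries (biological coefficient of variation 31.9%), and p-values were two-sided and Benjamini-Hochberg adjusted over 15763 genes. Each standard error was obtained from the fold change and the F statistic, as the size of the first over the root of the second. Replicates differed by far more than sampling noise (chi-square per degree of freedom at least 58.9).

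Members and gene lists (50 lists, 806 of 846 entries tested) were chosen with earlier results of these data known, and no list was tested as a set. Named genes were up to 12 higher and 12 lower by fold change with a mean of at least 1 CPM, no overlap and an adjusted p under 0.05 (leaving out predicted models, pseudogenes and receptor segments), the 4 members per list with the smallest passing p, and 12 fixed genes (Cpt1a, Pdk4, Angptl4, Id1, Bmp1, Asns, Mthfd2, Jdp2, Duox2, Reg3g, Igha and Zbp1). Other genes in the text, among them list members, Hs3st1, Muc4, Gmds, Upp1, Chst4, B4galt1, Slc9a3, Ripk3, Mlkl and Il18bp, were chosen after their values were seen. A few genes that the rule names, or that were chosen in this way, are not reported here. Alternatives were DESeq2 1.42.0, other scalings and filters, limma 3.58.1 on log2(TPM + 1) and log2(TPM + 0.1), replicate blocks and leaving out single libraries. Depth was even, so the small groups limit precision more than counting does.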

Additional observations from a re-analysis of the deposited data

Results flagged for a closer look

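Within the 4 Control libraries, 13 of 102 genes and list sums examined had 1 library far from the other 3, by the gap to its nearest neighbour as a share of the whole range (critical value 0.829). For normally distributed values about 1 in 20 would pass that value. CPM was used here without a log, and some sums contain genes that were examined singly. The 13 of 102 therefore cannot be judged against 1 in 20. Groups of 3 were not examined.

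Control 4 stood apart for Nos2 (share 0.989; 184 CPM against 47.0 to 48.5), Bhmt (0.915; 3.65 against 0.372 to 0.649), Ifit1bl1 (0.830; 91.2 against 23.3 to 34.8), and the sums of interferon-gamma GTPases (0.880; 236 against 72.1 to 91.7), aminoacyl-tRNA synthetases (0.926; 762 against 851 to 858) and fatty acid synthesis (0.933; 4016 against 604 to 832). Control 1 stood apart for Duox2 (0.865; 37.6 against 77.7 to 84.0), Mylk3, a called lower gene (0.844; 3.26 against 0.997 to 1.35), and the tuft cell marker sum (0.903; 83.2 against 56.1 to 58.7). Control 3 stood apart for Saa3 (0.858; 3.10 against 0.326 to 0.720) and Gpx2 (0.839; 329 against 97.9 to 135). Control 2 stood apart for Gzmb (0.845; 2.07 against 5.43 to 6.04) and the immediate early sum (0.885; 2597 against 1693 to 1797). For Nos2, Ifit1bl1, Bhmt, Saa3 and Gpx2 the outlying Control library was the one nearest to the Inulin_PFOS values and still below all 3 of them.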

How the results depend on the processing

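No gene examined (the 161 called genes and Cpt1a, Pdk4, Angptl4, Id1 and Reg3g) changed direction in the alternatives that tested it, 17 to 21 for each gene, and 13 of the 161 were called in all 21. The count of 161 became 500 with DESeq2 (161 kept; 6 adjusted p missing), 89 with library totals (63 kept), and 80, 84 and 73 with limma on log2(TPM + 1), log2(TPM + 0.1) and log2(TPM + 1) without a filter. Leaving out single libraries gave 23 (without Inulin_PFOS 1) to 221 (without Control 3). RLE factors gave 178, no low-count filter 135, at least 10 counts in 7 libraries 171, the 7 libraries fitted alone 126, a fit without Pectin_PFOS 1, which stands apart, 172, without mitochondrial genes 161, and a fit that is not robust 176. Fewer libraries were fitted when some were left out; otherwise the cause was not tested.

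Control and Inulin_PFOS libraries with the same biological replicate number had deviation correlations of 0.142, 0.154 and 0.0455. Pairs with different biological replicate numbers had -0.198 to 0.127. By this number each Inulin_PFOS library had its highest value with the Control library of its own number. For Inulin_PFOS 3 the margin was small (0.0455, against 0.0423 with Control 2). By the number in the group name, same-numbered pairs had 0.142, 0.00797 and -0.0262, and the pattern was not seen. Whether the number marks a shared batch or another link was not tested, and the main fit holds no term for it. A replicate block on the biological replicate number gave 125 calls (110 kept) and on the number in the group name 162 (129 kept).

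The list medians of glutathione, short-chain fatty acid and ketone, enteroendocrine and colon genes were -0.20, -0.02, -0.02 and -0.04 with library totals, against 0.03, 0.20, 0.21 and 0.16. Genes near 1 CPM rest on few counts.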
